A study of Arabidopsis thaliana with 4 samples.

Results

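The 7 genes described here encode regulators of mitotic entry and exit: the aurora kinase genes AUR1 (AT4G32830), AUR2 (AT2G25880) and AUR3 (AT2G45490), the spindle checkpoint gene BUBR1 (AT2G33560), the GRAS transcription factor gene SCL28 (AT1G63100) and the ubiquitin-conjugating enzyme genes UBC20 (AT1G50490) and UBC19 (AT3G20060). They are a set of loci named for their roles, with earlier results of these data known, and are 7 of the 13286 loci that the platform annotation pairs with a single-gene probe set. Each is read by 1 probe set. The arrays held total RNA of whole Arabidopsis thaliana Col-0 seedlings, 10 days old, grown on Murashige-Skoog salts in long days at 23 °C. There were 2 arrays of 35S:miR396, in which the microRNA miR396 is overexpressed from the viral 35S promoter, active in most plant tissues, and 2 of the wild type. The labels do not state whether the arrays of a genotype come from separate plants or cultures, or whether the 35S:miR396 plants are 1 line or several, so a p-value here reflects only how these arrays scatter, possibly for technical reasons.

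These genes belong to successive steps of plant cell division. Aurora kinases phosphorylate spindle and chromosome proteins: AUR1 and AUR2 are close relatives found on spindles and at the forming cell plate, while AUR3 acts at centromeres and on histone H3. BUBR1 is a protein of the checkpoint that holds anaphase until kinetochores are attached, UBC19 and UBC20 resemble the animal conjugating enzyme that works with the anaphase-promoting complex to destroy mitotic cyclins, and SCL28 is a transcription factor of the G2 to M transition. miR396 cuts the messages of GROWTH-REGULATING FACTOR (GRF) genes, which sustain cell proliferation in young leaves. None of the 7 belongs to the GRF family.

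The arrays did not share a common level, with median signals of 60.5 and 81.3 in 35S:miR396 (arrays 1 and 2) and of 72.8 and 71.3 in wild type (arrays 1b and 2). Signals are given as deposited, on the linear MAS5 scale of the array software, while ratios and tests use log2 signals from which the median of the array was taken off (centred signals). A same-number ratio sets 35S:miR396 1 over wild type 1b (number 1) or 35S:miR396 2 over wild type 2 (number 2), although the labels do not say that a number marks a shared batch. The number of arrays limits the precision: over all tested probe sets, 95% intervals of the log2 fold change had a median half-width of 0.63. The test between genotypes has no term for the replicate number, so variation shared by same-numbered arrays also stays in these intervals. Over tested probe sets the same-number log2 ratios had SDs of 0.36 (number 1) and 0.35 (number 2). The log2 gaps between the 2 arrays of a genotype had SDs of 0.58 (wild type) and 0.57 (35S:miR396). Neither miR396 gene checked, nor any of the 7 GRF genes that carry a site for it, had a single-gene probe set, so the overexpression named in the labels was not checked here. Of the marker genes, the leaf antenna gene LHCB4.1 lay between 11775 and 13507 on the 4 arrays and the root beta-glucosidase gene PYK10 between 1195 and 1497. The other measured root gene, the peroxidase gene AT3G03670, lay between 2.3 and 13 and was under the filter on low signals. The sign of root RNA therefore rests on PYK10 alone. The meristem gene CLV3 did not rise above 7.9 on any array, and the pollen gene AT5G45880 not above 3.3. In whole seedlings, fewer dividing cells and less RNA per dividing cell cannot be told apart.

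No gene of the 7 passed the test between genotypes, and 5 of them had a lower mean log2 signal in 35S:miR396, against 50.2% of all 22746 probe sets. Without 35S:miR396 1 it was 7 of 7, against 53.6%, with AUR3 and UBC19 only at -0.05 and -0.04. With any other array left out the count was 5 of 7, against 45.7% to 52.2%. Of the 6 that passed the filter on low signals, 0 passed limma's test at an adjusted p of 0.05 (lowest adjusted p = 1.00), and 0 had an unadjusted p under 0.05. In this comparison, which has no term for the replicate number, 0 of all 15922 tested probe sets passed, or 0%, and 103 had an unadjusted p under 0.05, or 0.647%. BUBR1 lay below the filter and was fitted only without it. Without the filter the 7 log2 fold changes had a median of -0.28, beside -0.0012 over all probe sets.

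After centring, both 35S:miR396 arrays lay below both arrays of the wild type for 3 of the 7 genes (AUR1, BUBR1 and UBC20), against 12.2% of all 22746 probe sets. Both lay above the wild type for 0 of the 7, against 11.2% of all probe sets, and the genotypes overlapped for the other 4. On the deposited signals the separated genes were also 3, but with SCL28 in place of UBC20 (background 10.4% of all probe sets). With 1 array left out such separation is easier for every probe set. The count was 5 of 7 without 35S:miR396 1, against 33.8% of all probe sets, and 5 of 7 without wild type 1b, against 32%. It stayed at 3 of 7 without 35S:miR396 2, against 28.7%, and without wild type 2, against 30.9%.

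**Figure D1:**
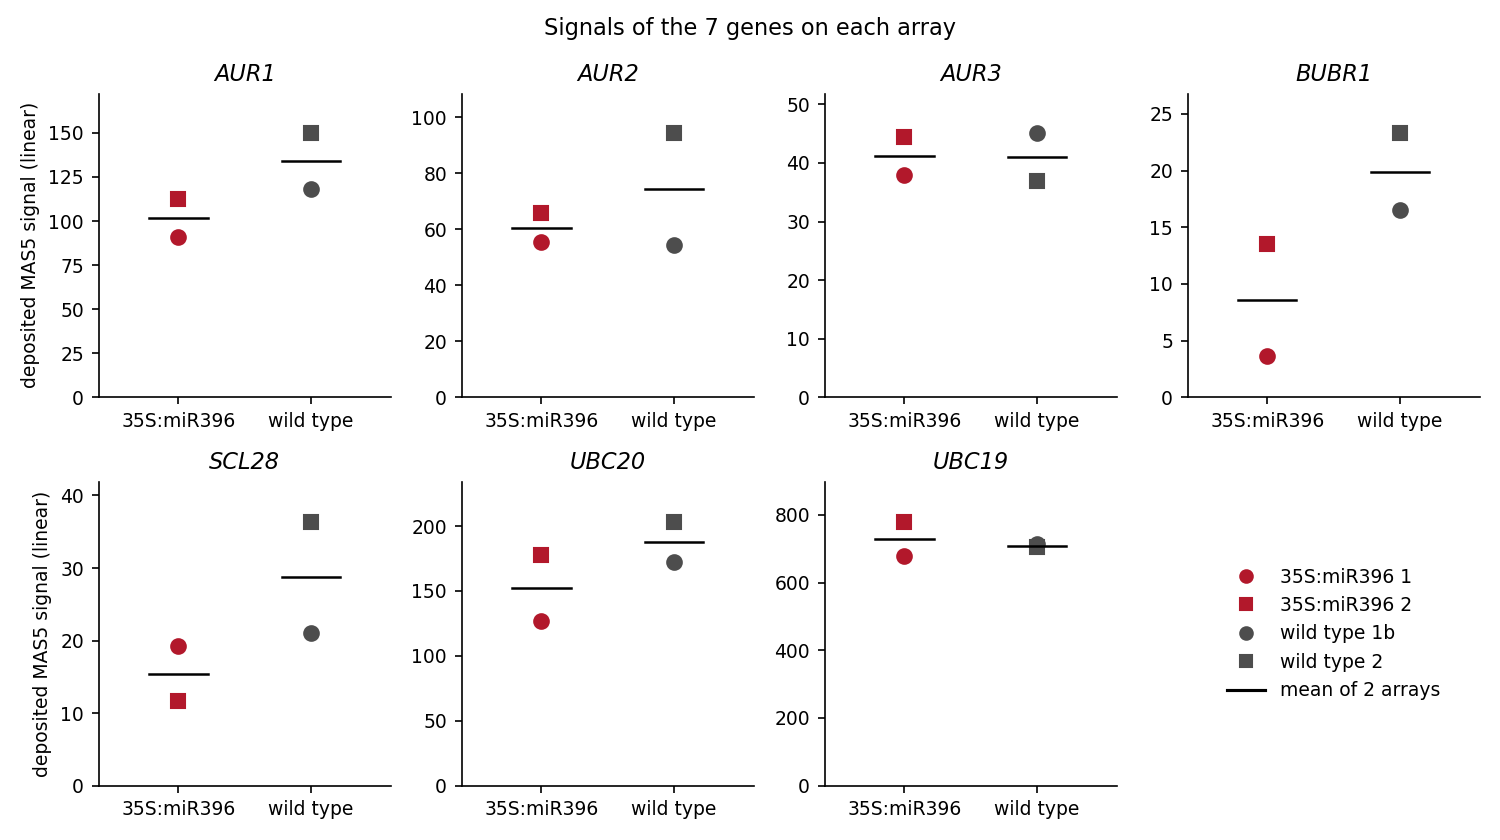
Deposited MAS5 signal (vertical axis, linear, from 0) of each gene on each array, with 35S:miR396 at the left and wild type at the right of each panel. Circles are arrays 1 and 1b, squares arrays 2, and bars the mean of 2 arrays. Wild type 2 has the highest point for AUR1, AUR2, BUBR1, SCL28 and UBC20. On this scale the groups of AUR2, AUR3, UBC19 and UBC20 overlap.

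SCL28, the transcription factor gene, had a lower mean in 35S:miR396, a difference that did not pass the test. Its signal was 19.2 and 11.7 on 35S:miR396 arrays 1 and 2, against 21.0 and 36.4 on wild-type arrays 1b and 2. Wild type 2 was the highest and 35S:miR396 2 the lowest, while both arrays of number 1 lay close together. The means were 15.4 ± 5.30 in 35S:miR396 and 28.7 ± 10.9 in wild type (SD, n = 2 each), all low signals for which a log ratio is imprecise. The log2 fold change after centring was -0.84 (SE 0.56, 95% interval -2.29 to 0.60, limma adjusted p = 1.00, unadjusted p = 0.192). The 35S:miR396 over wild-type log2 ratio was 0.14 in number 1 and -1.83 in number 2. Its geometric mean over the 4 arrays was 20.4, above the lowest mean of 15.8 that the filter kept, with centred log2 means of 3.93 in 35S:miR396 and 4.77 in wild type, so it passed through its wild-type signals. The fold change was -0.27 without 35S:miR396 2, -0.43 without wild type 2 and -1.41 without 35S:miR396 1.

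AUR1, which acts on the spindle and at the cell plate, had its 2 lower signals in 35S:miR396. Its signal was 91.2 and 112 on 35S:miR396 arrays 1 and 2, against 118 and 150 on wild-type arrays 1b and 2. The closest arrays of the 2 genotypes, 35S:miR396 2 and wild type 1b, were 112 and 118 before centring. Means were 102 ± 14.99 and 134 ± 22.6 (SD, n = 2 each) in 35S:miR396 and wild type. The log2 fold change was -0.35 (SE 0.22, 95% interval -0.92 to 0.21, limma adjusted p = 1.00). The log2 ratio was -0.10 in number 1 and -0.60 in number 2. Without wild type 2 the fold change was -0.17, and without wild type 1b it was -0.54.

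AUR2, the nearest relative of AUR1, did not separate the genotypes. Its signal was 55.3 and 65.7 on 35S:miR396 arrays 1 and 2, against 54.3 and 94.3 on wild-type arrays 1b and 2. Wild type 2 stood above the other arrays, and wild type 1b was the lowest of all. The log2 fold change was -0.21 (SE 0.34, 95% interval -1.09 to 0.68, limma adjusted p = 1.00). The ratio turned with the number, at 0.29 in number 1 and -0.71 in number 2, and the fold change was 0.20 without wild type 2 and -0.62 without wild type 1b. The gap between the wild-type arrays was 0.83 on the log2 scale, and 11.7% of tested probe sets had one at least as wide.

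AUR3, the centromeric aurora kinase, had nearly equal means in the genotypes. Its signal was 38.0 and 44.5 on 35S:miR396 arrays 1 and 2, against 45.1 and 37.0 on wild-type arrays 1b and 2. The arrays of both genotypes covered almost the same range. The log2 fold change was 0.05 (SE 0.26, 95% interval -0.63 to 0.73, limma adjusted p = 1.00), and the ratios were 0.02 in number 1 and 0.08 in number 2. The fold change turned to -0.05 without 35S:miR396 1 and to -0.08 without wild type 2.

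BUBR1, the checkpoint gene, was the faintest of the 7 on 35S:miR396 1. Its signal was 3.6 and 13.5 on 35S:miR396 arrays 1 and 2, against 16.5 and 23.3 on wild-type arrays 1b and 2. Both 35S:miR396 arrays were below both wild-type arrays. The filter kept probe sets with a mean signal of at least 15.8, and the mean of BUBR1 was 11.7 (geometric, after centring). Without the filter its log2 fold change was -1.45 (SE 0.71, 95% interval -3.29 to 0.38, limma adjusted p = 1.00 over 22746 probe sets, of which 0% passed). Its ratio was -1.93 in number 1 and -0.98 in number 2, the reverse of the order seen for SCL28, AUR1, AUR2, UBC20 and UBC19. Leaving out 35S:miR396 1 gave a fold change of -0.71, leaving out 35S:miR396 2 gave -2.19, and with 2.4 added to each signal before the log it was -1.14.

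UBC20 separated the genotypes by a small margin after centring, but not on the deposited signals. Its signal was 127 and 178 on 35S:miR396 arrays 1 and 2, against 172 and 203 on wild-type arrays 1b and 2. On the deposited scale 35S:miR396 2 exceeded wild type 1b, while after centring the log2 signals were 7.22 and 7.28 in 35S:miR396 and 7.39 and 7.66 in wild type. The log2 fold change was -0.28 (SE 0.19, 95% interval -0.77 to 0.22, limma adjusted p = 1.00). The ratio was -0.17 in number 1 and -0.38 in number 2, and the fold change was -0.14 without wild type 2.

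UBC19, the paralogue of UBC20, showed no consistent direction. Its signal was 679 and 780 on 35S:miR396 arrays 1 and 2, against 714 and 704 on wild-type arrays 1b and 2. The wild-type arrays lay inside the range of the 35S:miR396 arrays. Means were 730 ± 71.1 and 709 ± 7.0 (SD, n = 2 each) in 35S:miR396 and wild type. The log2 fold change was 0.08 (SE 0.16, 95% interval -0.34 to 0.50, limma adjusted p = 1.00). The ratio was 0.20 in number 1 and -0.04 in number 2, and leaving out 35S:miR396 1 or 35S:miR396 2 gave a fold change of -0.04 or 0.19.

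**Figure D2:**
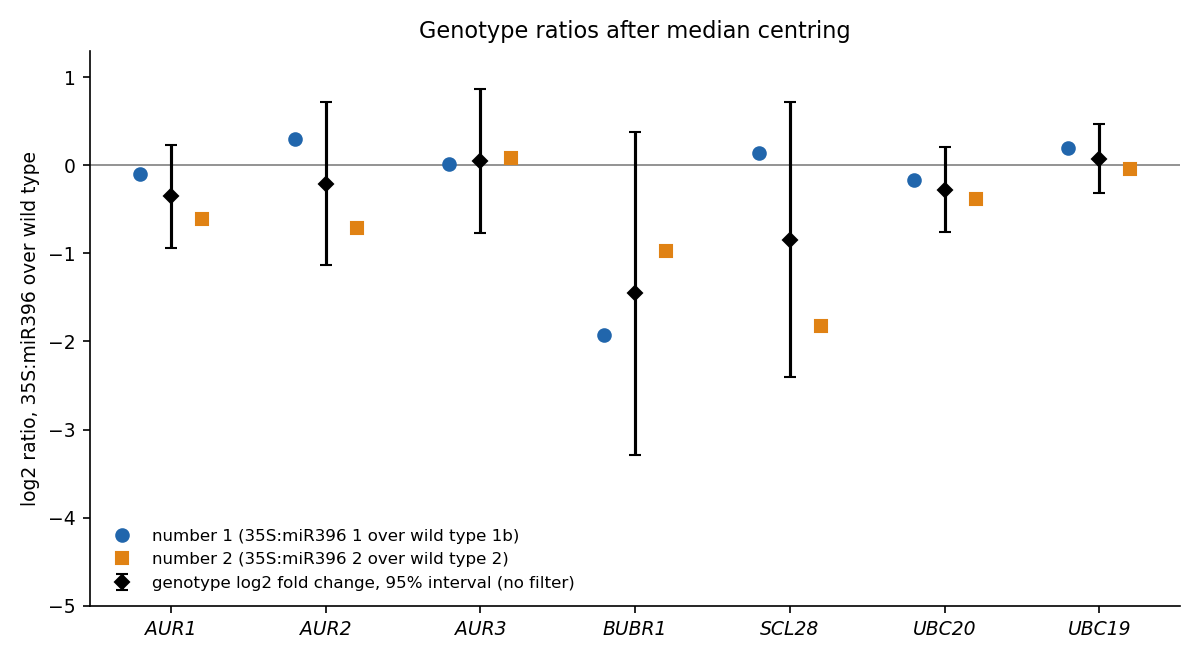
Log2 ratio of 35S:miR396 over wild type (vertical axis) for each gene after median centring, as the genotype fold change with its 95% limma interval without the filter (diamonds), in number 1 (circles) and in number 2 (squares). Every interval spans 0. The widest same-number gap is that of SCL28, at 0.14 in number 1 and -1.83 in number 2.

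The 2 numbers gave different pictures of the 7 genes. Their median log2 ratio was 0.02 in number 1, with 3 of 7 below 0, and -0.60 in number 2, with 6 of 7 below 0. Over all 22746 probe sets, 47.2% were below 0 in number 1 and 53.8% in number 2. Over the tested probe sets, which leave out BUBR1, the median ratios were 0.01 and -0.02, and over the 6 tested members they were 0.08 and -0.49. AUR1, BUBR1 and UBC20 were below 0 in both numbers, or 3 of 7, against 25.3% of all probe sets. The ratio was lower in number 2 than in number 1 for 5 of the 7, against 54.4% of all probe sets. Wild type 2 was the highest of the 4 arrays for 5 of the 7 genes (AUR1, AUR2, BUBR1, SCL28 and UBC20), against 26.1% of all probe sets. This count was chosen after the values were seen. The difference between the numbers was not tested, since each number holds 1 array of a genotype.

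**Figure D3:**
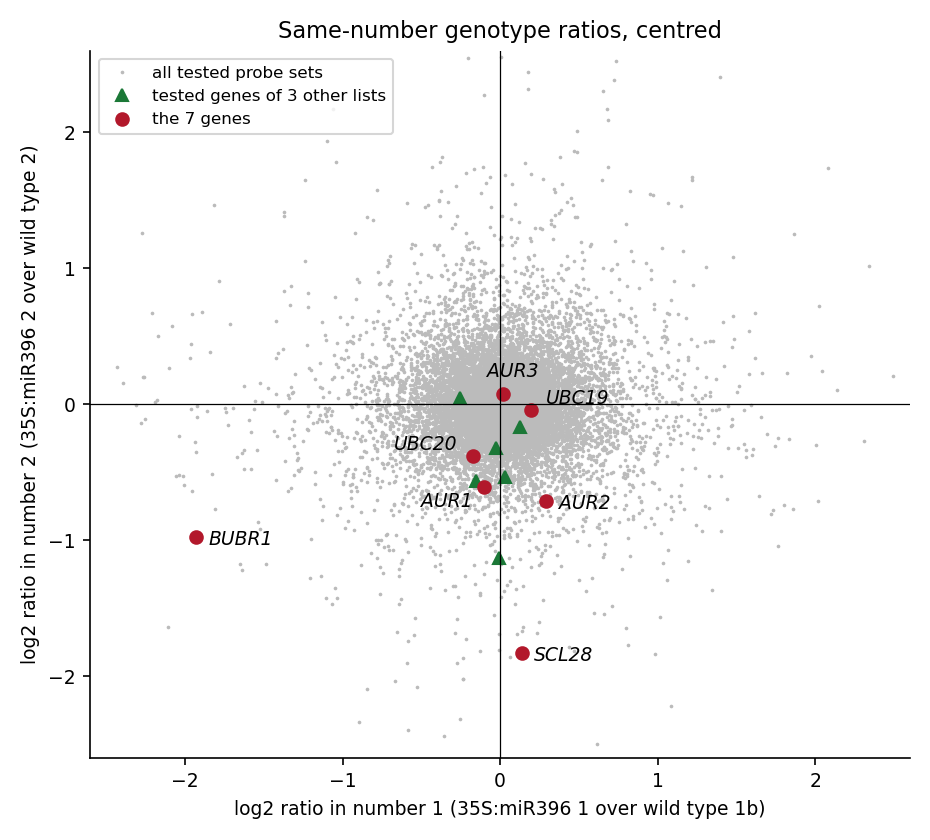
Log2 ratio of 35S:miR396 over wild type in number 1 (horizontal axis) and in number 2 (vertical axis), centred, for the 7 genes (circles), for the 6 tested genes of the checkpoint, anaphase-promoting complex and spindle lists (triangles) and for all tested probe sets (grey points, 19 of which lie outside the axes). SCL28, AUR2 and AUR1 lie well below 0 on the vertical axis and near or above it on the horizontal one, while BUBR1 lies below 0 on both.

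Paralogues were compared by the difference between their genotype ratios, which needs no scaling of the arrays. The probe sequences were not used here, so cross-hybridisation between close relatives was not tested, although each of the 7 probe sets has the plain name ending that the manufacturer gives to gene-specific sets. The fold change of AUR1 minus that of AUR2 was -0.15 (SE 0.23), at -0.40 in number 1 and 0.11 in number 2, so that neither was lower throughout. The difference for AUR1 minus AUR3 was -0.40 (SE 0.32), at -0.12 in number 1 and -0.68 in number 2. For AUR2 minus AUR3 it was -0.26 (SE 0.54), at 0.27 and -0.79. The contrast that differed least between the numbers was that of the conjugating enzymes, where UBC20 minus UBC19 gave -0.35 (SE 0.19), at -0.37 in number 1 and -0.34 in number 2. The two-sided exact permutation test over arrays gave p = 1 for AUR1 minus AUR2 and for AUR2 minus AUR3, and p = 0.333 for the other pairs (0.667 after Benjamini-Hochberg adjustment over the 4 pairs). With 2 against 2 arrays this test cannot give a p below 0.333, so it can call none of the 4 contrasts.

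**Figure D4:**
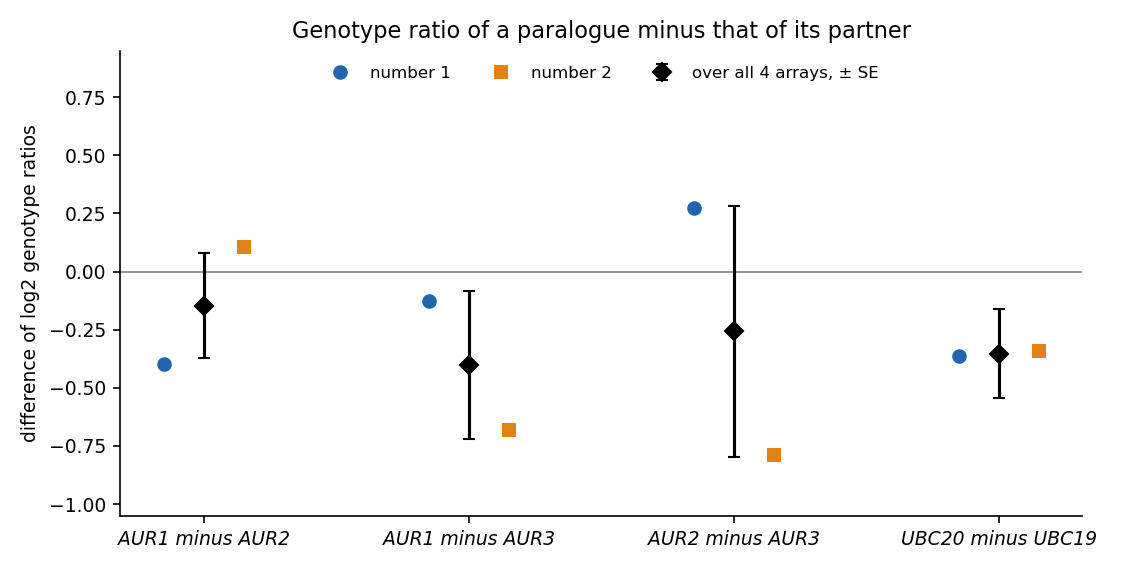
Difference of the log2 genotype ratios of 2 paralogues (vertical axis) over all 4 arrays with its SE (diamonds), in number 1 (circles) and in number 2 (squares). The UBC20 minus UBC19 points lie together between -0.37 and -0.34, while both AUR2 contrasts lie on opposite sides of 0 in the 2 numbers.

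Among the tested members themselves, AUR1 and UBC20 had the most alike patterns over the 4 arrays. After each gene's own mean was taken off, their centred log2 signals differed by a root mean square of 0.08, and AUR1 ranked 163 of 8735 tested single-gene probe sets by closeness to UBC20. AUR1 and AUR2 differed by 0.18, AUR2 and AUR3 by 0.40. AUR3 and UBC19 differed by 0.10, although UBC19 ranked only 1158 of 8735 by closeness to AUR3. SCL28 differed by 0.46 from AUR1, the nearest to it among the 6, yet AUR1 ranked 216 of 8735 by closeness to SCL28. This difference is not scaled by how widely a gene varies, and SCL28 varied most of the 6. The probe sets closest to AUR1 were those of AT1G08580 and AT3G60660 (0.030 and 0.031 log2 units over 4 arrays), and AT3G61840 and AT5G55660 were closest to AUR2 (0.040 and 0.049). AT5G07630 and AT2G44065 were closest to AUR3 (0.0067 and 0.012), AT3G23160 and AT2G20110 to SCL28 (0.14 and 0.19), AT4G21720 and DAYSLEEPER to UBC20 (0.018 and 0.021), and AT2G42490 and AT5G55220 to UBC19 (0.0052 and 0.0062). With 4 points per gene these values describe likeness of level changes on these arrays.

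Other genes of the same processes were sparsely covered by the annotation as matched here. None of 18 mitotic CDK and cyclin genes and none of 5 MYB3R genes was matched to a single-gene probe set. The MYB3R genes encode the transcription factors that act on G2/M promoters. In this matching a gene symbol with a semicolon was read as several genes, and 8730 probe sets had no gene. Whether the array carries probe sets for these genes was therefore not tested. Of 10 spindle checkpoint and kinetochore genes 3 were tested: HTR12, the centromeric histone, had a log2 fold change of -0.25, BUB3.1, the partner of BUBR1, one of -0.18, and Haspin, a histone H3 kinase, one of -0.10. BUB3.1 stood at 84.5 and 139 in 35S:miR396 against 104 and 153 in wild type, with ratios of -0.03 in number 1 and -0.32 in number 2. HTR12 gave 0.03 and -0.53. BUB3.2, a further BUB3 gene, was under the filter, at 3.7 and 24.9 in 35S:miR396 against 25.6 and 22.9 in wild type. Its log2 ratio was -2.52 in number 1 and -0.07 in number 2. The other genes under the filter in the checkpoint, anaphase-promoting complex and spindle lists went the other way in number 1. There WYR gave 0.77, CDC27a 2.20 and AT4G26660 2.18, all on low signals. In number 2 these genes gave -0.57, -0.90 and -0.11.

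Of 19 genes of the anaphase-promoting complex and its activators 1 was tested: HBT, a core subunit, had a log2 fold change of -0.02, with ratios of 0.13 in number 1 and -0.17 in number 2. Of 10 spindle and cytokinesis genes 2 were tested. KINESIN-12B (PAKRP1L), a kinesin of the phragmoplast, was at 34.9 and 31.5 in 35S:miR396 against 42.2 and 60.5 in wild type, with ratios of -0.01 and -1.13 in numbers 1 and 2. AT4G32700 gave a fold change of -0.36. It is known for a DNA polymerase and helicase role in repair rather than for the spindle. None of these 6 genes passed limma's test (0% of all tested probe sets passed).

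The SIAMESE-related CDK inhibitors slow entry into mitosis, and some are reported targets of SCL28. Of 14 genes 7 were tested and 0 were called higher or lower, where 0% of all tested probe sets were called. Below 0 were 4 of 7, against 50.2% of all 22746 probe sets, and the median log2 fold change was -0.03. SIM, the founding member, had a fold change of -0.03. AT1G08180 had one of -0.41, AT2G28870 one of 0.63, AT2G28330 one of -0.11 and AT5G02420 one of -0.10. AT2G28870 was at 32.8 and 16 in 35S:miR396 against 13.5 and 17.2 in wild type, where 35S:miR396 1 alone stood above both wild-type arrays. These are low signals, and AT2G28870 passed the filter, which kept means of at least 15.8, through 35S:miR396 1.

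Of 33 other ubiquitin-conjugating enzyme genes 10 were tested and 0 were called, where 0% of all tested probe sets were called. Their log2 fold changes ran from -0.29 to 0.16, with a median of -0.03. Of the 10, 6 were below 0, against 50.2% of all 22746 probe sets. UBC37 had the lowest at -0.29, with ratios of -0.14 in number 1 and -0.44 in number 2. UBC16 had 0.16, UBC22 -0.14 and UBC27 -0.12. Of 31 other GRAS transcription factor genes 9 were tested and 0 were called, against the same 0%. The median was 0.11, with 3 of 9 below 0, against the same 50.2%. LAS, which forms axillary meristems, had a log2 fold change of -0.57, at 12.1 and 17.4 in 35S:miR396 against 27.0 and 18.2 in wild type. These are low signals, and LAS passed the filter, which kept means of at least 15.8, through its wild-type arrays. AT5G66770 had 0.57, at 40.9 and 55.3 against 33.3 and 32.4, and the ratios were 0.56 and 0.58 in the 2 numbers. SCL21 had -0.42 and AT5G59450 had 0.29.

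**Figure D5:**
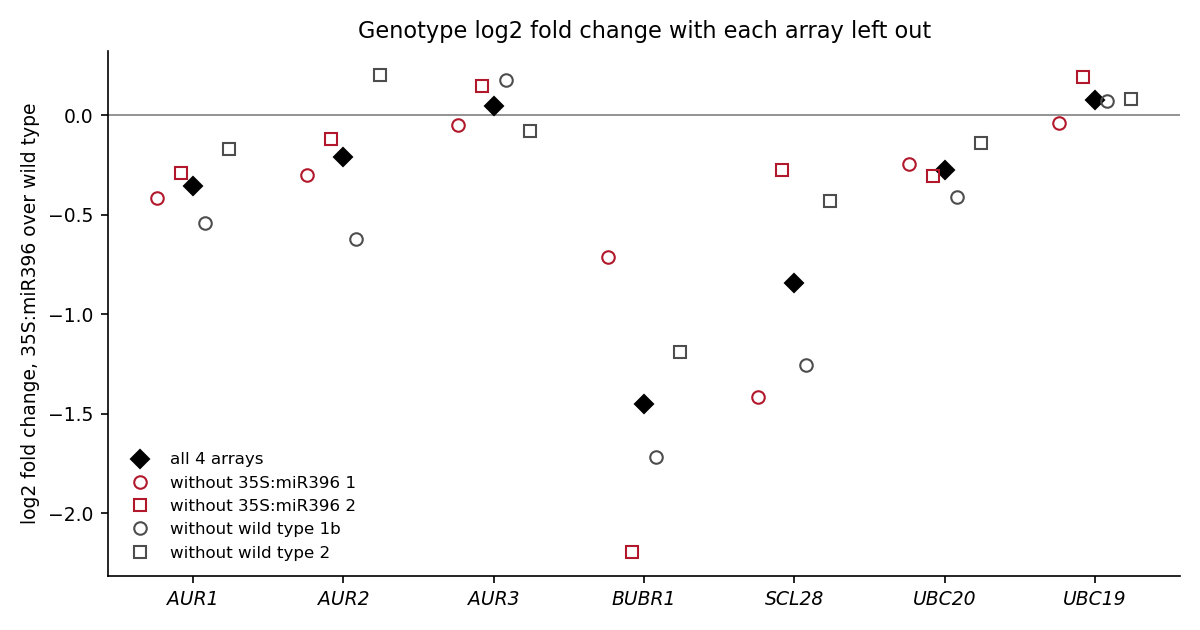
Log2 fold change of 35S:miR396 over wild type (vertical axis) for each gene with all 4 arrays (diamonds) and with each array left out (open symbols, red for 35S:miR396 and grey for wild type). The values of AUR1, BUBR1, SCL28 and UBC20 stay below 0, while AUR2, AUR3 and UBC19 cross it.

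Some of the 7 genes lie close to other genes in the RefSeq gene table of the TAIR10.1 assembly. The annotated spans of AUR1, AUR2, AUR3 and UBC20 overlap that of a neighbouring gene. The neighbour of AUR3 is GRF9, a GRF gene that carries a site for miR396. Probe positions were not used here, so whether a probe set reads the neighbour's transcript was not tested.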

How the data were processed

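The deposited table holds 1 intensity value per probe set on a linear scale, which the authors obtained with MAS5 (named in the submitters' processing notes). Its version, scaling target and detection calls are not given in the sources used here. Of 22810 probe sets 64 controls were left out. Among the rest, 13513 had 1 gene in the platform annotation, 503 were read as several and 8730 had none. Any entry with a semicolon was read as several, even where it was part of 1 symbol. Through RefSeq 13436 were matched to 13286 loci (the brightest probe set stands for a gene with several).

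Values at or under 0 were set to 0.1. Log2 signals were centred per array, and 30% of probe sets, those of lowest mean, were left out. limma 3.58.1 (R 4.3.3, eBayes with a trend, two-sided, no block) compared the genotypes over 15922 probe sets, called at a Benjamini-Hochberg adjusted p of 0.05. Paralogues were compared by an exact permutation test over arrays in scipy 1.17.1. The scripts were tested on simulated data. Members, lists and tests were chosen with earlier results of these data known. All members are named, as are, from each list, up to 4 tested genes with the largest moderated t and, for likeness, the 2 nearest probe sets. BUB3.2, WYR, CDC27a, AT4G26660, SIM and the overlapping neighbours were singled out once their values were known. Alternatives were the deposited scale, quantile normalization, no filter, the lowest 60% left out, a pseudocount of 2.4, no trend, a threshold of 0.1, arrays left out and the replicate number as a block.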

Additional observations from a re-analysis of the deposited data

How the results depend on the processing

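No member passed limma's test under any alternative tried. All 70 log2 fold changes of members under alternatives stayed uncalled: 66 kept their direction and 4 turned, each with 1 array left out (AUR2 to 0.20 and AUR3 to -0.079 without wild type 2, AUR3 to -0.051 and UBC19 to -0.037 without 35S:miR396 1). With the replicate number as a block, 18 of 15922 probe sets were called (5 higher and 13 lower), none of them a member or a gene of the lists. The labels do not state that a number pairs the arrays (number 1 of wild type is labelled 1b), and across tested probe sets the deviations of same-numbered arrays from their genotype means correlated at 0.63, which 2 arrays per genotype make the same for both pairs. With an array left out the called probe sets and called members both stayed at 0. Fold changes then ranged from -0.54 to -0.17 for AUR1, -0.62 to 0.20 for AUR2, -0.08 to 0.18 for AUR3, -1.41 to -0.27 for SCL28, -0.41 to -0.14 for UBC20, -0.04 to 0.19 for UBC19 and, without the filter, -2.19 to -0.71 for BUBR1. The paralogue differences ranged from -0.37 to 0.08 for AUR1 minus AUR2, -0.72 to -0.09 for AUR1 minus AUR3, -0.80 to 0.28 for AUR2 minus AUR3 and -0.50 to -0.21 for UBC20 minus UBC19. AUR1 minus AUR2 was 0.080 without wild type 1b, and AUR2 minus AUR3 was 0.28 without wild type 2. With an array left out, 5 to 7 of the 7 genes were below 0, against 45.7% to 53.6% of all probe sets, and 3 to 5 were lower on all 35S:miR396 arrays, against 28.7% to 33.8%. With the lowest 60% left out, UBC19 and UBC20 alone were tested. The alternatives for BUBR1 and for these counts of members were chosen after the data were seen.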
